A study of Homo sapiens with 12 samples.

Results

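The DNA methylation writers and TET erasers were the DNA methyltransferase genes DNMT1, DNMT3A and DNMT3B, the catalytically inactive family member DNMT3L, the DNMT1 partner UHRF1, and TET1, TET2 and TET3. They were listed by name, with no threshold on their values but with earlier results of these data known, and make up 8 of the 60617 genes in the TPM table. All 8 were listed in the TPM table, and 7 of them also had a row of read counts. DNMT3L had no count row and was compared on TPM, a level that corrects the read count for gene length and sums to the same total in all libraries. The expression values came from RNA-Seq of 201B7, an established human iPSC line of skin origin, with 3 libraries in each of 4 culture conditions and harvest on Day 5. Cond 1 was the control, grown in StemFit, a medium that keeps human iPSCs undifferentiated. Cond 2, the low nutrient condition, received StemFit that had been heated at 56 °C for 30 min, Cond 3 received a differentiation medium of DMEM with 10% FBS, 1% NEAA and 1% GlutaMax, and Cond 4 had a physical stimulus, pipetting repeated 20 times at passaging. The paper places the start of the heated medium at Day 2 in Cond 2 and the stimulus by FBS at Day 4 in Cond 3. Medium and length of exposure therefore cannot be told apart between these 2 conditions. All 4 conditions used the same line, and the replicates may be technical, so that p-values measure only the spread between these libraries. The study asked whether images of unlabeled living cells can predict markers of pluripotency, and the culture conditions served to vary the pluripotent state.

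Methylation of cytosine in CpG dinucleotides is copied after each round of replication by DNMT1, which is brought to newly made DNA by UHRF1, a protein that binds hemimethylated CpG and ubiquitinates histone H3. DNMT3A and DNMT3B place new methylation, and DNMT3L, which has no catalytic activity, stimulates them. The TET enzymes oxidize methylated cytosine with oxoglutarate as a cosubstrate, and the oxidized base is either lost by dilution at replication or cut out by the glycosylase TDG and replaced by base excision repair. Human pluripotent cells are known for high DNMT3B and for TET1 as a main TET gene. These data measure transcripts, and methylation itself was not measured. In bulk samples fewer cells that express a gene and less RNA per cell cannot be told apart.

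Total counts per library lay between 16441148 and 21871503. Markers of human pluripotent cells were expressed in every condition, with a summed TPM over 10 genes between 6275 (lowest library of Cond 2) and 7733 (highest library of Cond 4), and none of the 10 genes had a mean TPM below 1 in any condition. Single markers moved within that sum, with 4 higher and 5 lower in Cond 2 and 4 higher and 4 lower in Cond 3. Of all genes tested by edgeR, 10.8% were higher and 10.1% lower in Cond 2, and 19.5% and 18.8% in Cond 3. The pluripotency factor NANOG fell from 45.9 ± 1.93 TPM (SD, n = 3) in Cond 1 to 22.9 ± 2.37 in Cond 2 (log2 fold change -1.09, adjusted p = 6.43e-10 from edgeR) and 10.5 ± 0.759 in Cond 3 (-2.16, adjusted p = 1.40e-14 from edgeR). SOX2 rose in both, by 0.44 and 0.45 on the log2 scale (adjusted p = 5.37e-08 and 1.89e-08 from edgeR), while the NODAL co-receptor TDGF1 fell (-1.50 and -0.94, adjusted p = 4.34e-10 and 2.58e-07 from edgeR). The summed TPM of 7 neuroectoderm markers ran from 742 to 1104 in Cond 2 and from 242 to 292 in Cond 3, against 111 to 137 in Cond 1, with SOX1 and PAX6 below a mean of 1 TPM in all 3 conditions. Of the 6 tested, 5 rose in Cond 2 and 3 in Cond 3, among the latter OTX2 (log2 fold change 0.94, adjusted p = 9.61e-08 from edgeR) and LHX5 (2.01, adjusted p = 6.06e-07 from edgeR). The summed TPM of 7 fibroblast and mesenchyme markers was between 533 and 570 in Cond 3, against 285 to 308 in Cond 1, mostly from COL1A1. Of these 7, 4 had a mean TPM below 1 in Cond 3 and 5 in Cond 1, and DCN was at 0 in both. Of 6 surface ectoderm markers, 5 had a mean TPM below 1 in Cond 1 and 1 of 6 (TP63) in Cond 2, where the sum was lower (247 to 291 TPM against 328 to 394), and KRT18 made up most of it. The 7 mesoderm and endoderm markers summed to at most 5.75 TPM in any library. The part of these markers in the results below was not tested.

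In Cond 1, the order of the members by TPM, a level per gene length, ran from DNMT3B at 1371 ± 36.5 (SD, n = 3) through DNMT1 at 108 ± 2.36, DNMT3A at 57.2 ± 0.885, UHRF1 at 41.3 ± 3.50, TET1 at 36.3 ± 1.37 and TET3 at 17.7 ± 0.449 to DNMT3L at 2.16 ± 0.954 and TET2 at 0.757 ± 0.0817. DNMT3B held rank 68 of the 60617 genes by mean TPM, while TET2 held rank 18647. Neighbors in this order did not overlap between libraries. The lowest DNMT3L library had 1.07 TPM and the highest TET2 library 0.849.

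**Figure D1:**
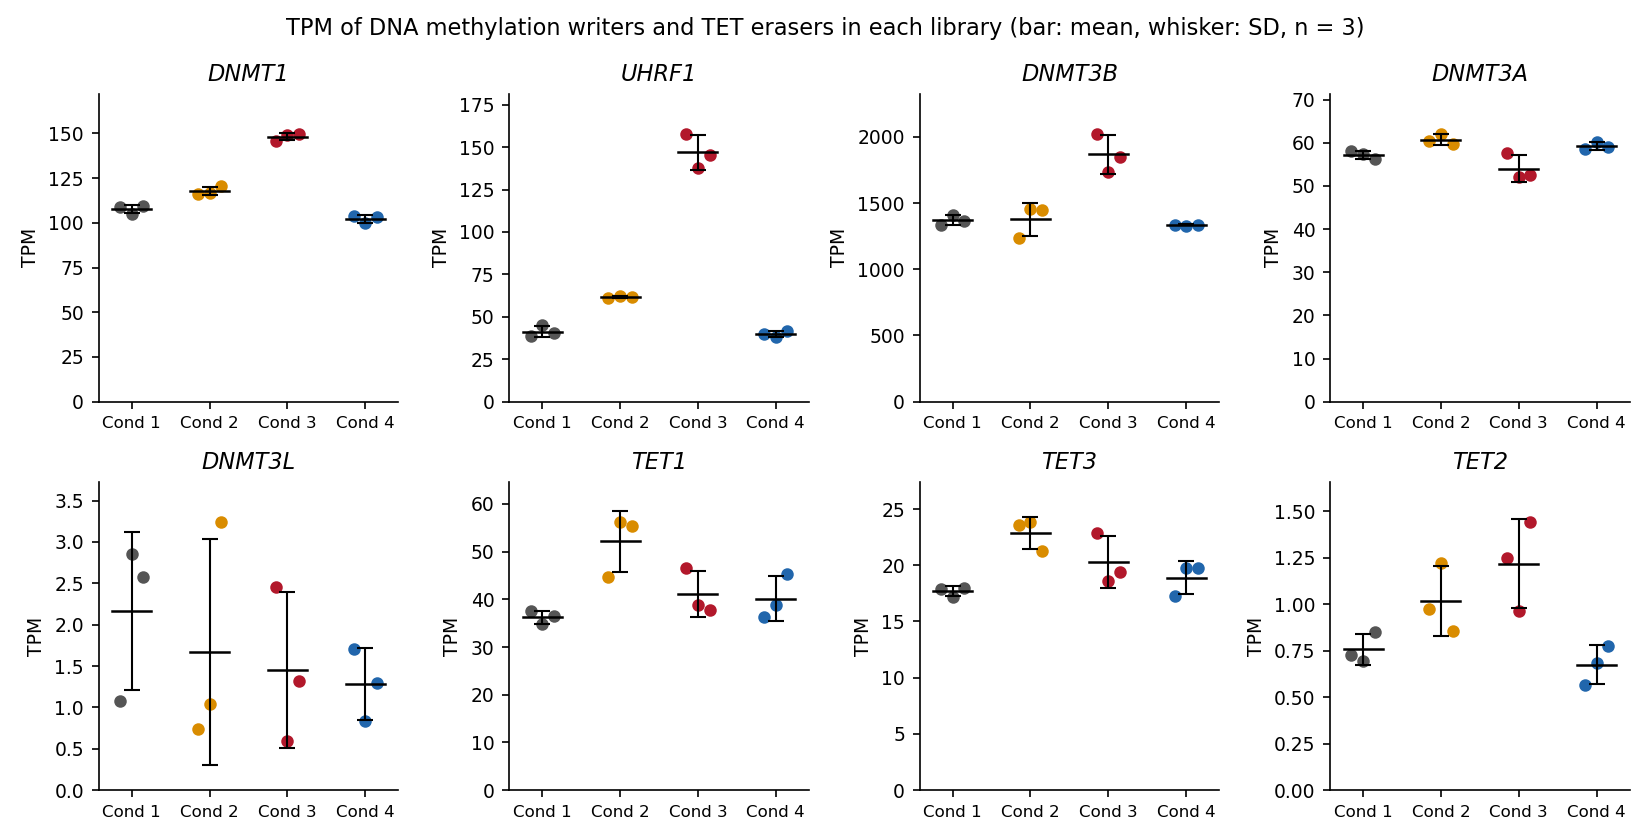
TPM of each of the 8 genes in the 12 libraries, 1 panel per gene with its own vertical axis from 0. Points are libraries, bars are means and whiskers are SD of 3 libraries per condition. UHRF1 rose in steps from Cond 1 to Cond 2 and Cond 3, DNMT1 and DNMT3B stood apart in Cond 3, and the DNMT3L libraries overlapped in every condition.

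Promoter sequence from RefSeq (GRCh38.p14, from 250 bases before to 50 bases after a transcription start) was available for 7 members in 18 windows. DNMT3L was not among the matched genes. The only DNMT3B window, at chr20:32779602-32779901, lies inside the gene, which starts at 32762385, so that start was not searched. Those of DNMT1 and UHRF1 also lie inside the gene. The E2F words searched on either strand were TTTCCCGC, TTTCGCGC, TTTGGCGC and TTTGCCGC. Of these 7 members, 2 had a match, UHRF1 and DNMT1, the maintenance pair. Both rose in Cond 3, as did DNMT3B and TET2, which had no match in their windows. The words were chosen after the promoters and the expression values had been seen. The windows that hold a match are shown with the matched bases in capitals. UHRF1 window 1 is at chr19:4909251-4909550 on the forward strand, UHRF1 window 2 at chr19:4909894-4910193 on the forward strand, and DNMT1 window 1 at chr19:10194904-10195203 on the reverse strand.
UHRF1 window 1: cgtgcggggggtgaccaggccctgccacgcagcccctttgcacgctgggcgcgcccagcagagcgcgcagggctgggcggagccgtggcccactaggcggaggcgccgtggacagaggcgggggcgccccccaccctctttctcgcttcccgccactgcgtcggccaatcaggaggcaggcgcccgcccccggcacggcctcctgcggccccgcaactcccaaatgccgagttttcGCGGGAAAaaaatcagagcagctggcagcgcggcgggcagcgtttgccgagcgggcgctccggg
UHRF1 window 2: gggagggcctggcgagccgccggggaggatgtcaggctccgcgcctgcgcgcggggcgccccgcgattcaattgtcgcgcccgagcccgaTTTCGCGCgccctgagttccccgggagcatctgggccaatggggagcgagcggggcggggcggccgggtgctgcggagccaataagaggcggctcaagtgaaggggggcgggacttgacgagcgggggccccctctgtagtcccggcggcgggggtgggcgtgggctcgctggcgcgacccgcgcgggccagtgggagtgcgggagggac
DNMT1 window 1: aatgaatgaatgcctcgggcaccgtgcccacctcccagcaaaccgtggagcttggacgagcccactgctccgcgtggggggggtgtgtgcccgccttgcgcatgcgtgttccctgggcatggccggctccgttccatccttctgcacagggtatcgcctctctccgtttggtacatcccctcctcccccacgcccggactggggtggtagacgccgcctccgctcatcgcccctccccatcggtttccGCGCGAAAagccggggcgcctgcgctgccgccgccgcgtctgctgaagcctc

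The matched word begins 14 bases before the transcription start in UHRF1 window 1, 160 bases before it in UHRF1 window 2 and 2 bases before it in DNMT1 window 1. Such a word was found in 3 of the 18 windows of the members and in 3.31% of all 35116 windows. By gene, 9 of 12 S phase genes and 5 of 13 maintenance partners with a window held one, against 3.99% of all 27305 genes. The octamer ATTTGCAT, the word bound by POU factors, was in none of the 18 windows and in 1.77% of all windows. The E2F words were chosen with promoters and expression values known, so these shares cannot serve as a test. Each E2F word holds a CpG, and the median CpG count was 27 in the member windows against 14 in all windows. These are matches of letters and say nothing of whether a factor was bound.

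UHRF1 (ENSG00000276043, chromosome 19, 4903080 to 4962154, forward strand) had the largest log2 fold change of the 7 members tested in Cond 2 and in Cond 3. Its TPM in the 3 libraries was 38.5, 45.3 and 40.2 in Cond 1, 61.4, 62.5 and 61.5 in Cond 2, 158, 138 and 145 in Cond 3, and 39.7, 38.2 and 41.9 in Cond 4. The libraries of Cond 2 lay above all of Cond 1, and those of Cond 3 above all of Cond 2, while Cond 4 overlapped Cond 1. In edgeR's quasi-likelihood test on the counts, fitted over 17747 genes, UHRF1 was 1.41-fold higher in Cond 2 than in Cond 1 (log2 fold change 0.50, standard error (SE) 0.069, adjusted p = 9.76e-06). It was 3.49-fold higher in Cond 3 (log2 fold change 1.80, SE 0.068, adjusted p = 7.11e-15 from edgeR). It was the 1 member called in Cond 3 with a fold change above 2, where 8.16% of all genes passed both thresholds, and 330 of the 17747 genes had a larger log2 fold change. No member passed both in Cond 2, where 4.34% of all genes did. Cond 3 also exceeded Cond 2, by 2.47-fold (log2 fold change 1.31, SE 0.067, adjusted p = 9.57e-13 from edgeR), where 8.77% of all genes and UHRF1 alone among the members passed both thresholds. Each value rests on 967 to 4978 reads per library.

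UHRF1 shares much of its sequence with the rest of the genome. Of the 31-base words of its transcripts, 51.6% also occur elsewhere, and 45.5% lie on chromosome 12 between 20551569 and 20554360. The copy there was taken to be the processed pseudogene AC112777.1, a name from the deposited counts. How reads with several matches were counted is not given in the sources used here, so the level of UHRF1 is uncertain. For the other members between 0% (TET3) and 9.58% (DNMT1) of words occur elsewhere, with the exception of DNMT3L. Reads counted on AC112777.1 came to between 5.37% and 6.64% of those on UHRF1 in the 12 libraries. AC112777.1 was also the gene whose pattern over the 12 libraries was nearest to that of UHRF1, with a root mean square distance of 0.140 on log2(TPM + 1) among 17623 genes, and the calcium channel gene CACNA1G followed at 0.160. The added 1 TPM shrinks the change of CACNA1G (1.72 TPM in Cond 1 and 9.38 in Cond 3) more than that of UHRF1 (41.3 and 147). With the counts of UHRF1 and this copy summed, an alternative chosen after seeing the data, the log2 fold change was 0.49 in Cond 2 (adjusted p = 9.40e-06 from edgeR), 1.79 in Cond 3 (adjusted p = 7.06e-15 from edgeR) and 1.30 in Cond 3 against Cond 2 (adjusted p = 1.01e-12 from edgeR). With at most 6.64% as many reads on the copy, this sum could move the values little. It cannot restore reads with several matches if these were left uncounted.

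DNMT1 (ENSG00000130816, chromosome 19, 10133342 to 10231286, reverse strand), the maintenance methyltransferase, rose in Cond 3 and did not pass the test in Cond 2 or Cond 4. Its TPM was 109, 105 and 109 in Cond 1, 116, 117 and 120 in Cond 2, 146, 149 and 150 in Cond 3, and 104, 99.7 and 103 in Cond 4. The 4 conditions did not overlap on this scale, in the order Cond 4, Cond 1, Cond 2 and Cond 3. By edgeR it was 1.35-fold higher in Cond 3 than in Cond 1 (log2 fold change 0.43, SE 0.047, adjusted p = 1.71e-07) and 1.31-fold higher than in Cond 2 (log2 fold change 0.39, SE 0.047, adjusted p = 7.26e-07). Its change in Cond 2 did not pass (log2 fold change 0.04, adjusted p = 0.602 from edgeR). TPM and the edgeR normalization differ here, since the median gene tested stood 0.09 higher on log2 TPM in Cond 2 than in Cond 1 and at 0.00 after the edgeR normalization, and with limma on log2(TPM + 1) DNMT1 passed the test in Cond 2 (log2 difference 0.13, adjusted p = 0.0388). For the other comparisons this shift of the median gene on log2 TPM was 0.02 (Cond 3 against Cond 1), 0.01 (Cond 4 against Cond 1) and -0.06 (Cond 3 against Cond 2).

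The rise of UHRF1 was larger than that of DNMT1, and the ratio of their TPM, chosen for display after their values were seen, moved with it. UHRF1 per DNMT1 was 0.384 ± 0.0408 (SD, n = 3) in Cond 1, 0.525 ± 0.0127 in Cond 2, 0.991 ± 0.0817 in Cond 3 and 0.391 ± 0.0140 in Cond 4. Cond 2 and Cond 3 lay above Cond 1 in every library (exact two-sided permutation test, p = 0.1 each, the smallest p that 3 against 3 libraries can give), and Cond 4 overlapped it (exact permutation p = 0.8). Set against the geometric mean of 15 S phase genes in the same library, UHRF1 was at 0.409 ± 0.0220 in Cond 1, 0.549 ± 0.0103 in Cond 2, 1.12 ± 0.0725 in Cond 3 and 0.385 ± 0.0147 in Cond 4. S phase genes also rose in Cond 3, where 10 of 14 tested rose and 0 fell. Of all genes tested, 38.4% passed in either direction and 19.5% were higher. The median log2 fold change of the S phase genes was 0.34, against -0.01 over all genes. The part of the S phase genes in the UHRF1 result was not tested.

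Partners of the maintenance pair rose with it in Cond 3. Of 12 tested, 9 rose and 0 fell, where 38.4% of all genes tested passed in either direction and 19.5% were higher. The median log2 fold change of the 12 was 0.29. PCLAF, a PCNA-binding protein, rose most (log2 fold change 1.27, adjusted p = 2.67e-09 from edgeR), followed by the replication clamp PCNA (0.46, adjusted p = 9.31e-07 from edgeR) and the DNA ligase LIG1 (0.40, adjusted p = 1.89e-05 from edgeR). In Cond 2, 2 of the 12 rose, PCLAF (log2 fold change 0.40, adjusted p = 0.00927 from edgeR) and the UHRF1 paralog UHRF2 (0.37, adjusted p = 5.71e-04 from edgeR), where 20.9% of all genes passed. Among S phase genes the largest increases in Cond 3 were in the cyclin gene CCNE1 (1.00, adjusted p = 3.78e-09 from edgeR), the ribonucleotide reductase subunit RRM2 (0.58, adjusted p = 1.02e-08 from edgeR) and the helicase subunit MCM4 (0.49, adjusted p = 3.02e-08 from edgeR). In Cond 2, 5 of 14 S phase genes rose, led by the licensing factor CDC6 (0.60, adjusted p = 6.19e-08 from edgeR), and MCM6 fell (-0.15, adjusted p = 0.0316 from edgeR). The log2 fold change of UHRF1 in Cond 3 exceeded that of each of the 74 associated and S phase genes tested, whereas in Cond 2, 5 of these 74 had a larger one.

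**Figure D2:**
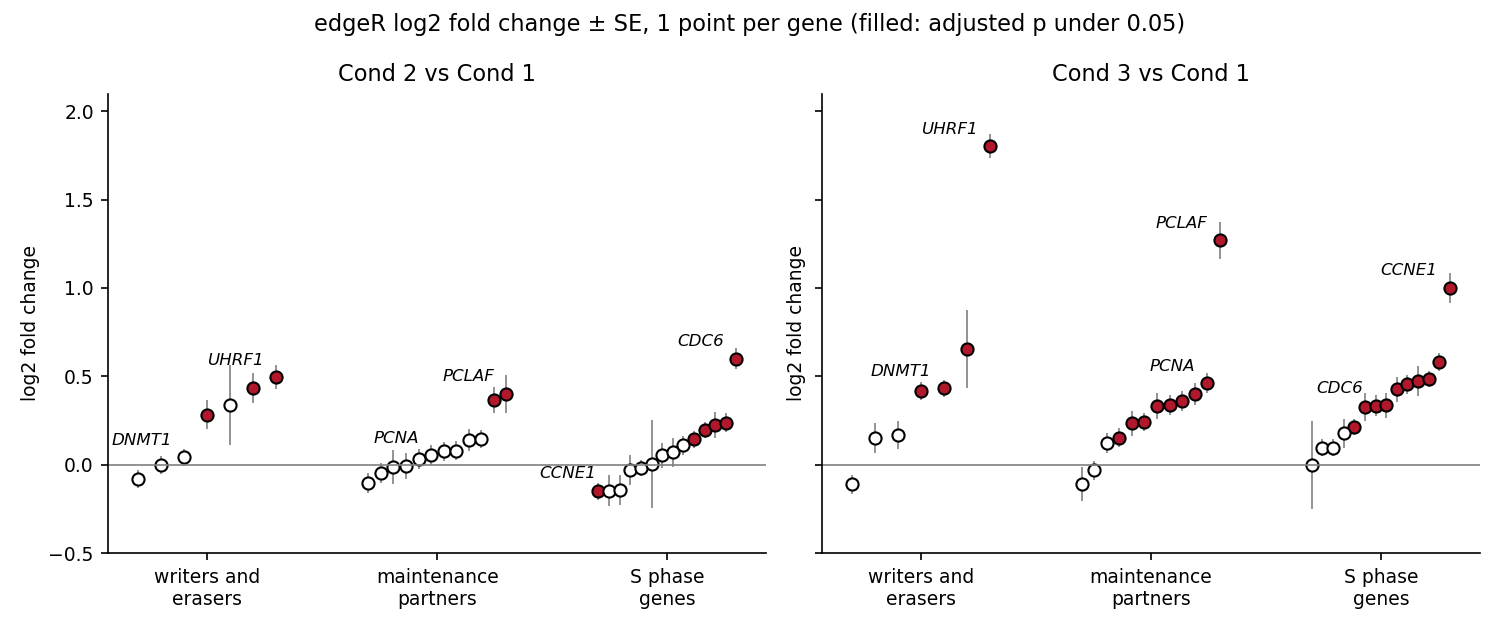
edgeR log2 fold change with standard error for the 7 members with counts, 12 maintenance partners and 14 S phase genes, in Cond 2 (left) and Cond 3 (right) against Cond 1. Each point is 1 gene, filled where the adjusted p was under 0.05. In Cond 3, UHRF1 at 1.80 lay above PCLAF at 1.27 and CCNE1 at 1.00, and no filled point lay below 0.

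DNMT3B (ENSG00000088305, chromosome 20, 32762385 to 32809359, forward strand), a de novo methyltransferase, was the most abundant member in every condition and rose further in Cond 3. Its TPM was 1338, 1410 and 1364 in Cond 1, 1234, 1454 and 1446 in Cond 2, 2024, 1735 and 1844 in Cond 3, and 1336, 1330 and 1338 in Cond 4. Each Cond 3 library exceeded all those of the other conditions, and Cond 2 overlapped Cond 1. Its rank by mean TPM went from 68 in Cond 1 to 46 in Cond 3. By edgeR it was 1.34-fold higher in Cond 3 than in Cond 1 (log2 fold change 0.42, SE 0.051, adjusted p = 8.73e-07) and 1.41-fold higher than in Cond 2 (0.50, SE 0.051, adjusted p = 6.73e-08). Its change in Cond 2 did not pass (log2 fold change -0.08, adjusted p = 0.307 from edgeR).

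DNMT3A (ENSG00000119772, chromosome 2, 25227855 to 25342590, reverse strand), the other de novo enzyme, passed edgeR's test over the 12 libraries in none of the 4 comparisons. Its TPM was 58.0, 57.4 and 56.2 in Cond 1, 60.5, 62.1 and 59.6 in Cond 2, 57.6, 52.0 and 52.4 in Cond 3, and 58.6, 60.3 and 58.9 in Cond 4. In Cond 3 replicate 1 lay within the range of Cond 1, and replicates 2 and 3 lay below it. For Cond 3 edgeR gave a log2 fold change of -0.11 (SE 0.052, adjusted p = 0.102), or -0.16 without replicate 1 of Cond 3 (adjusted p = 0.0409). Cond 3 lay below Cond 2 in every library (log2 fold change -0.11, SE 0.052, adjusted p = 0.103 from edgeR), and this difference passed without replicate 1 of Cond 3 (-0.16, adjusted p = 0.0398 from edgeR) and with limma on log2(TPM + 1) (-0.17, adjusted p = 0.0202). The ratio of DNMT3B to DNMT3A TPM within a library was highest in Cond 3, at 34.6 ± 1.01 (SD, n = 3), against 24.0 ± 0.789 in Cond 1, 22.7 ± 2.02 in Cond 2 and 22.5 ± 0.392 in Cond 4. Cond 3 did not overlap Cond 1 in this ratio (exact two-sided permutation test, p = 0.1), and neither did Cond 4 from below (exact permutation p = 0.1), while Cond 2 did (exact permutation p = 0.6).

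DNMT3L (ENSG00000142182, chromosome 21, 44246339 to 44262216, reverse strand) was low and variable. Its TPM was 1.07, 2.85 and 2.57 in Cond 1, 0.745, 1.04 and 3.24 in Cond 2, 2.46, 0.589 and 1.32 in Cond 3, and 1.71, 0.838 and 1.29 in Cond 4. The libraries of all conditions overlapped, and no comparison passed limma on log2(TPM + 1), where the difference from Cond 1 was -0.31 in Cond 2 (adjusted p = 0.634), -0.39 in Cond 3 (adjusted p = 0.488) and -0.44 in Cond 4 (adjusted p = 0.923). Its SE was 0.389, against at most 0.231 for the other members in edgeR. Of its 31-base words, 28.7% also occur elsewhere on chromosome 21, between 5011799 and 5017158, and 13.0% of its exon bases are shared with DNMT3L-AS1 on the opposite strand.

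**Figure D3:**
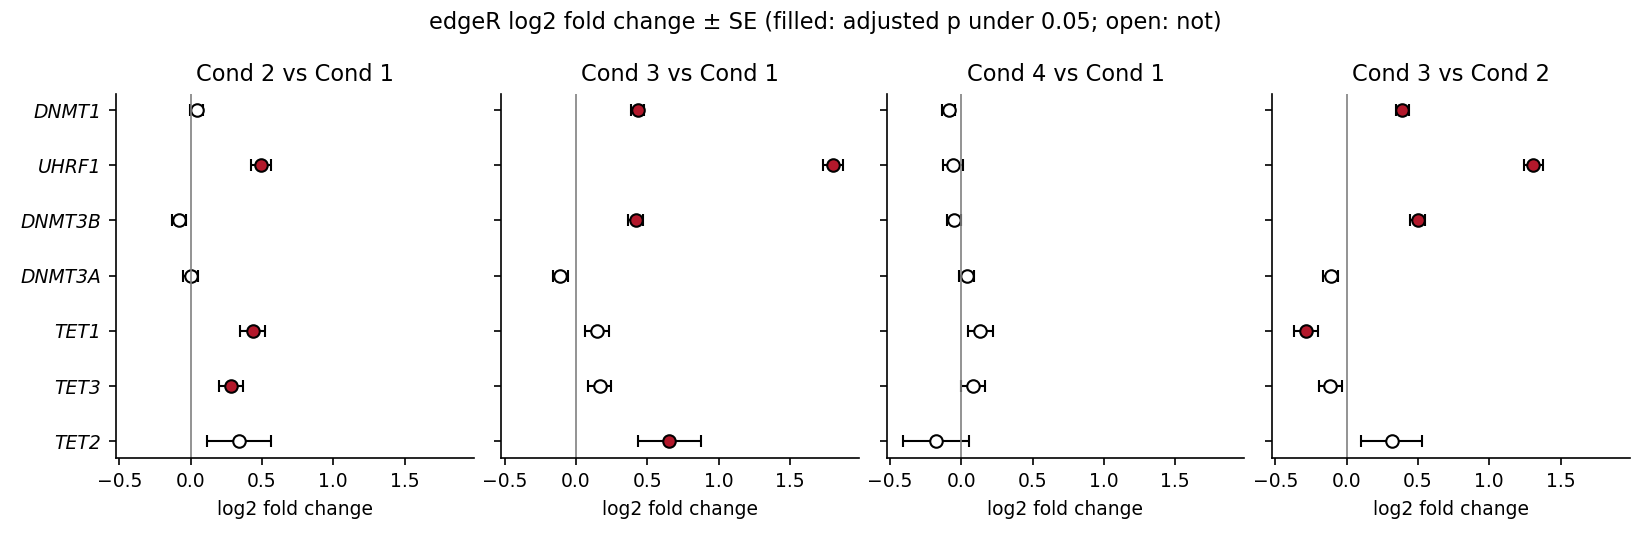
edgeR log2 fold change with standard error of the 7 members with counts, 1 panel per comparison. Filled points had an adjusted p under 0.05. In Cond 2 the filled points are UHRF1, TET1 and TET3, in Cond 3 they are UHRF1, DNMT1, DNMT3B and TET2, and in Cond 4 none is filled.

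TET1 (ENSG00000138336, chromosome 10, 68560337 to 68694487, forward strand), the most abundant TET gene, was highest in Cond 2. Its TPM was 37.5, 34.8 and 36.5 in Cond 1, 44.8, 56.2 and 55.5 in Cond 2, 46.6, 38.7 and 37.8 in Cond 3, and 36.3, 38.8 and 45.4 in Cond 4. Every library of Cond 2 lay above Cond 1, and its lowest overlapped the highest of Cond 3. By edgeR it was 1.35-fold higher in Cond 2 than in Cond 1 (log2 fold change 0.43, SE 0.085, adjusted p = 5.81e-04). Cond 3 did not pass against Cond 1 (0.15, SE 0.086, adjusted p = 0.180 from edgeR) and was lower than Cond 2 (-0.28, SE 0.085, adjusted p = 0.0104 from edgeR). This last call rested on single libraries, with adjusted p = 0.0639 without replicate 2 of Cond 2, 0.0567 without replicate 2 of Cond 3 and 0.0700 without replicate 3 of Cond 3, all from edgeR.

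TET3 (ENSG00000187605, chromosome 2, 73984910 to 74108176, forward strand) had the same order of mean levels as TET1, with Cond 1 lowest and Cond 2 highest, at a lower level. Its TPM was 17.9, 17.2 and 18.0 in Cond 1, 23.5, 23.8 and 21.3 in Cond 2, 22.9, 18.6 and 19.4 in Cond 3, and 17.2, 19.7 and 19.8 in Cond 4. By edgeR it was 1.22-fold higher in Cond 2 than in Cond 1 (log2 fold change 0.28, SE 0.081, adjusted p = 0.0139), a call that was lost without replicate 2 of Cond 1 (adjusted p = 0.0530), replicate 1 of Cond 2 (0.0515) or replicate 2 of Cond 2 (0.0568). It did not pass in Cond 3 (0.17, adjusted p = 0.109 from edgeR), although all 3 libraries lay above Cond 1. TET1 held 66.3% ± 0.474 (SD, n = 3) of the summed TET TPM in Cond 1, 68.4% ± 3.49 in Cond 2, 65.6% ± 1.02 in Cond 3 and 67.2% ± 1.66 in Cond 4, and no condition stood apart from Cond 1 in this share (exact permutation p = 0.4, 0.4 and 0.6).

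TET2 (ENSG00000168769, chromosome 4, 105145875 to 105279816, forward strand) was the scarcest member, with 44 to 126 reads per library. Its TPM was 0.727, 0.694 and 0.849 in Cond 1, 0.973, 1.22 and 0.857 in Cond 2, 1.25, 0.965 and 1.44 in Cond 3, and 0.564, 0.686 and 0.774 in Cond 4. Cond 2 and Cond 3 lay above Cond 1 in every library and overlapped each other. For Cond 2 the gap was small, 0.857 against 0.849 TPM. The median gene tested stood 0.09 higher on log2 TPM in Cond 2 than in Cond 1. TET2 was 1.57-fold higher in Cond 3 than in Cond 1 (log2 fold change 0.65, SE 0.221, adjusted p = 0.0227 from edgeR). The call was lost without replicate 1 or 2 of Cond 1 (adjusted p = 0.0688 and 0.0691 from edgeR) and without replicate 1 or 3 of Cond 3 (0.0577 and 0.118). It did not pass in Cond 2 (0.34, SE 0.224, adjusted p = 0.328 from edgeR) or between Cond 3 and Cond 2 (0.31, adjusted p = 0.274 from edgeR). The genes nearest to TET2 in pattern were the spindle-associated gene CSPP1, with a root mean square distance of 0.0665 on log2(TPM + 1), and the aldehyde dehydrogenase gene ALDH1B1, at 0.0842. The added 1 TPM shrinks the changes of TET2, with means of 0.757 TPM in Cond 1 and 1.22 in Cond 3. It matters less for CSPP1 (10.8 and 14.5) and ALDH1B1 (123 and 153), so this likeness holds only on that scale.

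Counted over the 7 members tested, 3 rose in Cond 2 and 0 fell, where 20.9% of all genes passed, 10.8% higher and 10.1% lower. In Cond 3, 4 rose and 0 fell, where 38.4% of all genes passed, 19.5% higher and 18.8% lower. UHRF1 was the 1 member called in both. Between Cond 3 and Cond 2 3 members were higher in Cond 3 (UHRF1, DNMT3B and DNMT1) and 1 was lower (TET1), where 38.2% of all genes passed, 19% higher and 19.2% lower. The sum of DNMT1, DNMT3A and DNMT3B over the sum of the TET genes, as TPM within a library, was 28.1 ± 1.58 (SD, n = 3) in Cond 1, 20.5 ± 0.440 in Cond 2, 33.2 ± 1.70 in Cond 3 and 25.2 ± 2.46 in Cond 4. Cond 2 lay below and Cond 3 above Cond 1 in every library (exact two-sided permutation test, p = 0.1 each), and Cond 4 overlapped Cond 1 (exact permutation p = 0.3). DNMT3B made up most of the sum of the methyltransferases.

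**Figure D4:**
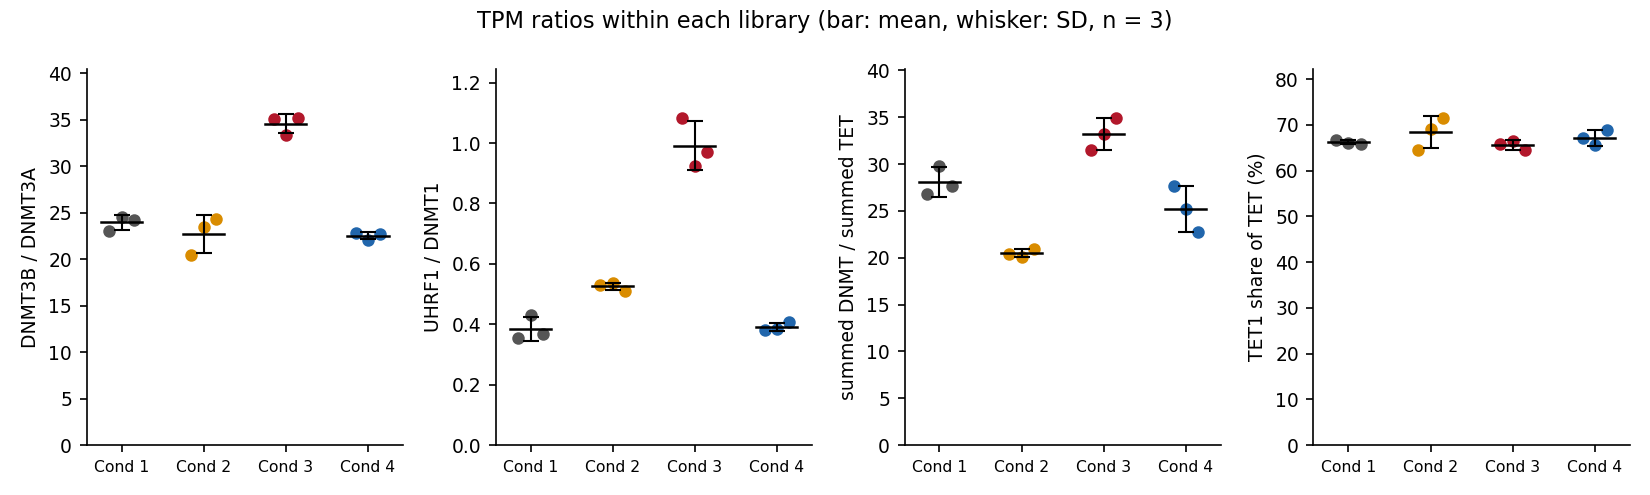
Ratios of TPM within each library by condition: DNMT3B to DNMT3A, UHRF1 to DNMT1, summed DNMT1, DNMT3A and DNMT3B to summed TET, and the percent of summed TET from TET1. Points are libraries, bars are means and whiskers are SD (n = 3), on axes from 0. The first 3 ratios were highest in Cond 3, the third was lowest in Cond 2 at 20.5, and the TET1 share stayed between 64.5% and 71.5% in all libraries.

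Repeated pipetting in Cond 4 gave no call among the members. Of 7 tested by edgeR, 0 passed the adjusted threshold, where 0.0282% of all genes did, 0 had an unadjusted p under 0.05, where 6.21% of all genes did, and DESeq2 and limma on log2(TPM + 1) also called 0. The log2 fold changes ran from -0.18 for TET2 to 0.13 for TET1, and the lowest adjusted p was 0.816 (DNMT1, -0.09, edgeR). Approximate 95% intervals from the standard errors limit the fold change to between 0.872 and 1.05 for UHRF1, 0.900 and 1.03 for DNMT3B, 0.882 and 1.00 for DNMT1 and 0.956 and 1.10 for DNMT3A. For TET2 the interval was wider, from 0.645 to 1.21. On TPM, DNMT1 and DNMT3A did not overlap between Cond 4 and Cond 1, DNMT1 lying lower and DNMT3A higher, where 11.9% of all genes did not overlap.

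The rest of the methylation machinery was described from 7 lists with 63 genes, of which 60 were tested. In Cond 2, 14 rose and 7 fell, where 20.9% of all genes passed. In Cond 3, 21 rose and 10 fell, where 38.4% of all genes passed, and in Cond 3 against Cond 2, 20 were higher and 17 lower, where 38.2% of all genes passed. The median log2 fold change of the 60 was 0.10 in Cond 2 and 0.02 in Cond 3, against 0.00 and -0.01 over all genes. In Cond 4, edgeR called 0 of the 60, where 0.0282% of all genes were called. Of the 60, 8 had an unadjusted p under 0.05 from edgeR, where 6.21% of all genes did. DESeq2 called 0 and limma called 0 of 58.

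Of 10 factors that set the context for de novo methylation, 5 rose in Cond 2, 0 fell and 5 did not pass, where 10.8% of all genes were higher. Those that rose included the histone methyltransferases NSD1 (log2 fold change 0.35, adjusted p = 6.97e-05 from edgeR) and NSD2 (0.33, adjusted p = 3.27e-05 from edgeR). DPPA3, which keeps UHRF1 off chromatin in mouse oocytes, was counted 26, 22 and 25 times in Cond 2, 1, 10 and 4 times in Cond 1 and 2, 2 and 0 times in Cond 3 (log2 fold change in Cond 2 2.19, SE 0.682, adjusted p = 0.0238 from edgeR). In Cond 3, 2 of 10 were higher, NSD2 (0.48, adjusted p = 7.70e-08 from edgeR) and the histone demethylase KDM1A (0.36, adjusted p = 3.67e-06 from edgeR), and the imprint-protecting factor ZNF445 was lower (-0.26, adjusted p = 0.00772 from edgeR). Of 6 factors bound at CpG islands, 3 rose in Cond 2 and 2 in Cond 3, where 10.8% and 19.5% of all genes were higher. QSER1, a partner of TET1 that keeps regulatory DNA free of methylation, rose in both, by 0.53 on the log2 scale in Cond 2 (adjusted p = 6.47e-07 from edgeR) and 0.22 in Cond 3 (adjusted p = 0.00735 from edgeR), and was lower in Cond 3 than in Cond 2 (-0.32, adjusted p = 2.29e-04 from edgeR), the order that TET1 had over these conditions.

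Among 7 genes listed as readers of methylated CpG, 1 rose and 0 fell in Cond 2, where 10.8% of all genes were higher and 10.1% lower. It was ZBTB33, which encodes Kaiso (log2 fold change 0.52, adjusted p = 7.13e-06 from edgeR). A place on this list does not show that a protein binds methylated CpG. In Cond 3, 3 rose and 2 fell, where 19.5% of all genes were higher and 18.8% lower. ZBTB33 (0.44, adjusted p = 2.68e-05 from edgeR), MBD2 (0.32, adjusted p = 0.0199 from edgeR) and MBD3 (0.30, adjusted p = 0.00375 from edgeR) were higher. ZBTB38 (-0.53, adjusted p = 0.00404 from edgeR) and MBD5 (-0.34, adjusted p = 0.0402 from edgeR) were lower. MBD3 is a subunit of the NuRD complex and does not itself bind methylated CpG well in mammals.

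Downstream of the TET enzymes, the glycosylase TDG rose in both media, by 0.30 on the log2 scale in Cond 2 (adjusted p = 0.00514 from edgeR) and 0.39 in Cond 3 (adjusted p = 2.90e-04 from edgeR). In Cond 3 the endonuclease APEX1 (0.42, adjusted p = 1.60e-06 from edgeR) and PARP1 (0.30, adjusted p = 1.36e-05 from edgeR) rose as well. In all, 3 of 14 genes of this list rose in Cond 3 and 4 fell, among them the DNA ligase LIG3 (-0.25, adjusted p = 0.00151 from edgeR). In Cond 2, 2 rose and 3 fell. The 7 called in Cond 3 and 5 in Cond 2 stand beside 38.4% and 20.9% of all genes called. The GADD45 genes, stress-inducible genes linked to active demethylation, did not move together. GADD45A rose in Cond 2 (0.58, adjusted p = 4.03e-04 from edgeR) and fell in Cond 3 (-1.14, adjusted p = 6.66e-08 from edgeR), while GADD45B and GADD45G fell in both, with log2 fold changes in Cond 2 of -0.86 for GADD45B (adjusted p = 2.44e-05 from edgeR) and -0.64 for GADD45G (adjusted p = 1.78e-05 from edgeR).

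TET partners and enzymes of oxoglutarate metabolism gave 1 gene higher and 1 lower of 7 in Cond 2, and 2 higher and 2 lower in Cond 3, where 20.9% and 38.4% of all genes passed in either direction. CXXC4, a negative regulator of TET2, fell in Cond 2 (log2 fold change -1.23, SE 0.172, adjusted p = 1.03e-05 from edgeR), from 189, 193 and 233 reads in Cond 1 to 79, 120 and 73. IDH2, the mitochondrial enzyme that makes oxoglutarate, rose in Cond 3 (0.82, adjusted p = 4.40e-09 from edgeR), and the cytosolic IDH1 rose in Cond 2 (0.20, adjusted p = 0.0194 from edgeR) and Cond 3 (0.22, adjusted p = 0.00424 from edgeR). The TET-stabilizing partner PROSER1 (-0.32, adjusted p = 7.01e-05 from edgeR) and the glycosyltransferase OGT (-0.29, adjusted p = 0.0152 from edgeR) fell in Cond 3.

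Of the 4 genes for the supply of S-adenosylmethionine, the methyl donor of the writers, 3 fell in Cond 2 and 1 in Cond 3, where 10.1% and 18.8% of all genes were lower. MAT2A, its synthetase, fell in both (log2 fold change -0.30, adjusted p = 0.0275 and -0.31, adjusted p = 0.0120, both from edgeR). MAT2B (-0.23, adjusted p = 0.0150 from edgeR) and the hydrolase AHCY (-0.21, adjusted p = 0.00463 from edgeR) fell in Cond 2. Germ cell genes that promoter methylation silences in somatic cells were mostly at or near 0. Of 11 such genes, 4 were tested and 9 had a mean TPM below 1 in Cond 1, and their summed TPM was between 13.3 and 18.9 in Cond 1, 11.3 and 15.9 in Cond 2, 10.8 and 13.9 in Cond 3 and 15.3 and 17.9 in Cond 4. SOHLH2 fell in Cond 2 (-1.11, adjusted p = 0.0110 from edgeR) and Cond 3 (-0.78, adjusted p = 0.0423 from edgeR), and SYCP1 rose in Cond 3 from 0.296 ± 0.0931 to 1.04 ± 0.564 TPM (1.78, adjusted p = 0.0211 from edgeR).

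**Figure D5:**
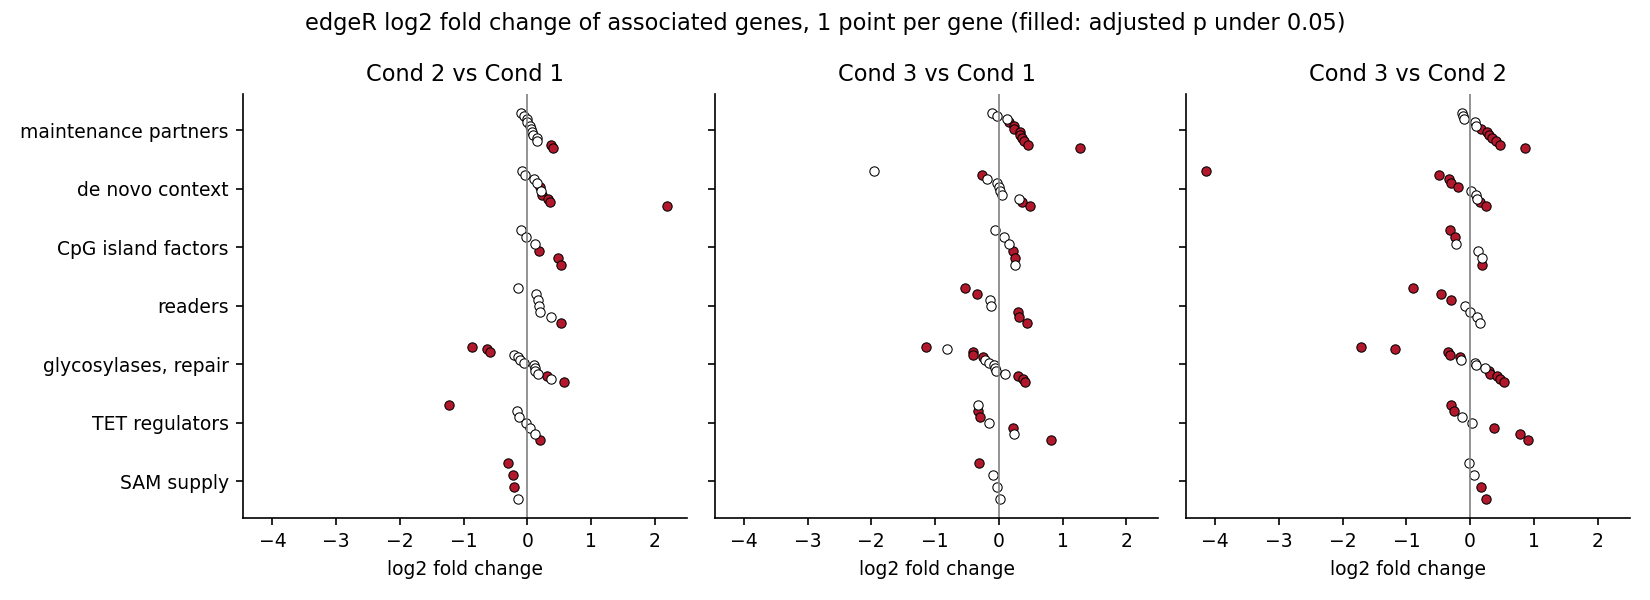
edgeR log2 fold change of the 60 associated genes tested, by list, in Cond 2 and Cond 3 against Cond 1 and in Cond 3 against Cond 2. Each point is 1 gene, filled where the adjusted p was under 0.05. Filled maintenance partners lie to the right of 0 in all panels, while readers, repair genes and TET regulators have filled points on both sides in Cond 3, and the point farthest left is DPPA3, whose fitted value rests on at most 2 reads per library in Cond 3.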

How the data were processed

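RNA-Seq was measured in 12 libraries of 201B7, 3 per condition. Libraries were made from poly(A) RNA with a directional kit. The authors aligned trimmed reads to GRCh38 with HISAT2 (2.1.0 in the submitters' processing notes), and featureCounts gave the reads per gene. The deposited read counts are raw whole numbers. From these and the gene lengths the authors computed the TPM they deposited. Of the count table, 5 lines held no whole gene row, and 2042 genes of the TPM table lacked a count row and stayed out of the count test. Total counts of 16441148 to 21871503 per library leave counting error small for the members with counts other than TET2. The reads behind DNMT3L are not known.

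After TMM normalization, edgeR 4.0.16 (R 4.3.3) fitted its quasi-likelihood model to the counts, in 1 fit over the 4 conditions after edgeR's filter on low counts, with Benjamini-Hochberg adjustment over 17747 genes. A gene was called at an adjusted p under 0.05. DNMT3L was tested with limma 3.58.1 on log2(TPM + 1) over 17623 genes with a mean TPM of at least 1. Single TPM values and ratios had exact two-sided permutation tests over libraries. The scripts were tested on simulated data. Alternatives were upper-quartile normalization, DESeq2 1.42.0, limma on log2(TPM + 1) and log2(TPM + 0.1), all genes without a count filter, a fit of only the 6 libraries compared, a replicate block, a fold change above 2, and each library left out. Words of 31 bases were taken from GENCODE release 44 transcripts and searched in the GRCh38 genome. The members and lists were chosen with earlier results of these data known, and 2 listed genes that are not reported here were left out of all list counts. Genes named were the members, up to 3 called genes per list and direction, and the 2 genes nearest in pattern to members with a called log2 fold change above 0.5.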

Additional observations from a re-analysis of the deposited data

How the results depend on the processing

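Of 321 values of the members' fold changes under alternatives, 296 kept their direction and their side of the threshold, 11 lost a call, 6 gained one and 8 changed sign. UHRF1 kept its calls at the adjusted threshold in every alternative run, with log2 fold changes of 0.44 to 0.58 in Cond 2, 1.75 to 1.87 in Cond 3 and 1.23 to 1.35 in Cond 3 against Cond 2, and DNMT1 and DNMT3B kept theirs in Cond 3. DNMT3A in Cond 2 changed sign with limma (0.084 on log2(TPM + 1) and 0.086 on log2(TPM + 0.1)) and ranged from -0.017 to 0.021 with 1 library left out. DNMT3B in Cond 2 changed sign with limma (0.0042 with both pseudocounts), where log2 TPM carries the shift of 0.09 given above. DNMT3L in Cond 3 against Cond 2 ranged from -0.36 to 0.31 with 1 library left out. With a fold change above 2, the members called were 0 in Cond 2, 1 in Cond 3 and 1 in Cond 3 against Cond 2, against 3, 4 and 4. With 1 library left out, between 2 and 3 members were called in Cond 2, 3 and 4 in Cond 3 and 3 and 5 in Cond 3 against Cond 2. The associated genes called in Cond 2 were 13 without replicate 1 of Cond 1 and up to 21 without another library, against 21. TET2 in Cond 3 was not called without the filter on low counts (0.65, adjusted p = 0.0511 from edgeR). In Cond 4, 1 associated gene, KMT2A, was called without that filter (log2 fold change 0.29, adjusted p = 0.0469 from edgeR), chosen for mention after its value was seen, and all-gene calls were 5, with 12 by DESeq2, 52 without the filter, 8 with the 6 libraries alone and 3 with either limma. With 1 TPM added to each gene, the TET1 share was 64.5% in Cond 1 and 64.1% in Cond 3, and the summed DNMT to TET ratio in Cond 2 was 19.7. The added 1 TPM is larger beside the scarce TET2, at 0.757 TPM in Cond 1, than beside the other genes in these ratios.

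Replicate numbers were not taken as pairs, since the labels name nothing that a number shares and correlations of same-numbered deviations were over 0.1 in 1 of 18 pairs. They lay between -0.07 and 0.11 with a median of 0.04, against -0.01 for differently numbered pairs, and 7 of 12 libraries were closest to their own number, a hint from the data and not from the design. With the replicate number as a block, the members called were 3 in Cond 2, 4 in Cond 3, 0 in Cond 4 and 4 in Cond 3 against Cond 2, as without it, and the associated genes 21, 33, 0 and 37. The block changed no call of a member.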
